A study of Mus musculus with 15 samples.

Results

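Organoids grown from liver metastases of the first transplant round (Met1, 3 libraries) were compared with organoids grown from primary colon tumours (6 libraries), across all genes. The 9 libraries were chosen by their sample titles, out of 15 in the series: Met1 replicates 1 to 3, and the primary-derived organoids of round 2 (Primary2, 3 libraries) and round 3 (Primary3, 3 libraries). No primary-derived library of round 1 is among the samples used here, so Met1 has no primary of its own round, and the site of origin cannot be told apart from the transplant round. All libraries were made from organoids of mouse colon cancer with the AKP genotype, which carries engineered changes in Apc and Trp53 among others, and all came from C57Bl6 recipient mice with an intact immune system. Tumour cells were placed in the colon, recovered from the primary tumour or from the liver, cultured, and placed in the colon again over 3 rounds. No drug or other treatment is named. The controls carry the same engineered alleles as Met1 and, like it, went through a mouse and culture, but they are of later rounds and from the colon. Whether replicates came from separate mice, lines or cultures is not in the labels. The p-values below therefore refer to the spread among these libraries, which may be technical.

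Apc is the scaffold that marks beta-catenin for destruction, and its loss keeps Wnt target genes on in most colon tumours. Trp53 encodes the p53 protein, which halts or kills damaged cells. Organoid culture takes tumour cells out of the host and grows them as epithelial clusters in a gel, so the vessels, stroma and immune cells of the colon or liver are no longer around them at harvest.

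Sequencing gave 18213726 to 21105296 estimated counts per library in Met1, 17996537 to 21306543 in Primary2 and 14122203 to 17502844 in Primary3. The replicate coefficient of variation fitted by edgeR was 0.327 in Met1, 0.289 in Primary2 and 0.222 in Primary3. The share of counts from a ribosomal RNA gene ran from 2.01% to 3.73% in Met1, 3.74% to 3.83% in Primary2 and 3.53% to 7.03% in Primary3. On the first principal component of the 9 libraries, which held 63.4% of the variance, Met1 lay between 42.4 and 66.3 and the primaries between -34.9 and -7.78. Met1 replicate 2 lay farthest out at 66.3. Leaving that library out lowered the count of calls against the primaries more than leaving out any other, so the gene list counts below are also given without it, and members called in all 18 alternative settings tried are pointed out (other tools, scalings, filters and models, and each library left out). Epithelial identity matched the label: Epcam, an adhesion protein of epithelial cells, was counted at 745 to 856 CPM (counts scaled to library size) in Met1 and 852 to 1059 CPM in the primaries. The colonocyte factor Cdx1 was nearly absent, at no more than 0.274 CPM in any of the 9 libraries.

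The engineered genes were read first. Trp53 stood at 4.96, 3.6 and 3.52 CPM in Met1 replicates 1 to 3, against 7.25, 7.46 and 8.91 CPM in Primary2 and 10.2, 7 and 8.31 CPM in Primary3. The groups did not overlap, and Trp53 was lower in Met1 (log2 change -1.02, SE 0.21, adjusted p 0.00429, edgeR's quasi-likelihood test with Benjamini-Hochberg adjustment, as for every adjusted p below). All 9 libraries held Trp53 reads, and the table does not show which part of the transcript they came from, so the gene checks neither label. Apc gave 70.1, 84.9 and 75 CPM in Met1 and 64.3 to 89.1 CPM in the primaries, a log2 change of 0.00 (SE 0.12, adjusted p 0.983), whose sign changed under 6 of the alternative settings. Gata6, the intestinal transcription factor of the series title, stood at 5.96, 28.5 and 21.6 CPM in Met1 and at 3.12 to 9.72 CPM in the primaries. Met1 replicate 1 lay inside the primary range while the others lay above it. The difference did not pass the test (log2 change 1.60, SE 0.69, adjusted p 0.0975), although limma-voom and a fit of only the groups compared called it, with adjusted p from 0.0269 to 0.366 over the alternatives.

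Of 14925 genes tested, 4420 were called at an adjusted p under 0.05 (29.6%). In Met1 2229 genes were higher (14.9%) and 2191 were lower (14.7%), with a median log2 change over all tested genes of -0.03. Of the called genes, 1893 changed at least 2-fold, 926 up and 967 down. Both groups were fully separated for 3708 called genes (24.8% of genes tested, beside 32.5% separated with or without a call). Without Met1 replicate 2 the count was 2115 of 15392 genes tested (1153 higher, 962 lower). Calls thus fell over all genes, and the list counts without that library are to be read beside these. The main list counts are likewise to be read beside the 14.9% higher and 14.7% lower over all genes. Each set of primaries was also compared on its own. Met1 differed from Primary2 at 2914 genes (19.5%) and from Primary3 at 3504 (23.5%). Those counts fell to 800 without Primary2 replicate 1, to 801 without Met1 replicate 2 and, against Primary3, to 1621 with the ribosomal RNA share as a covariate. Between Primary3 and Primary2 edgeR called 0 genes (0.0%), with 1063 at an unadjusted p under 0.05, while DESeq2 called 44 and limma-voom 1.

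**Figure D1:**
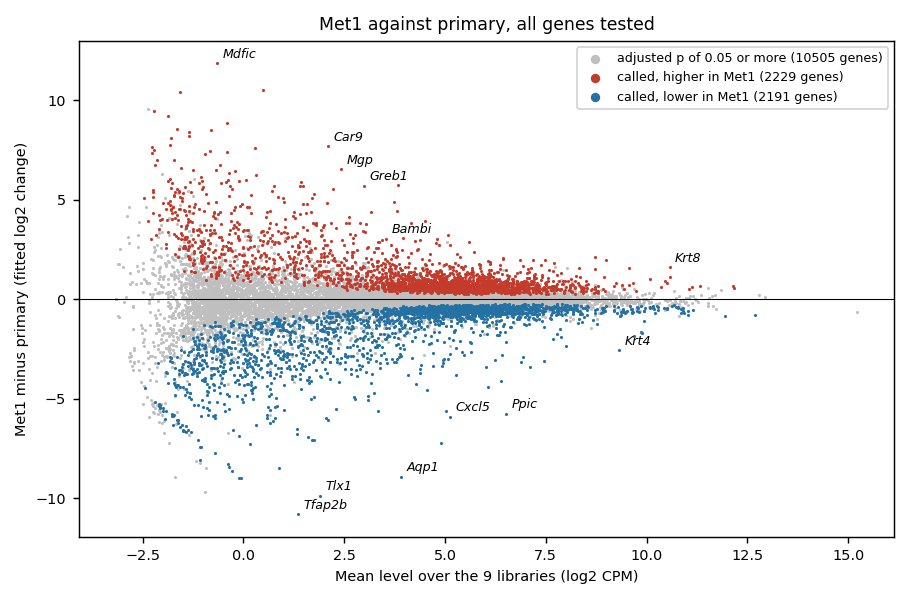
Each point is 1 of the 14925 genes tested, with its mean level over the 9 libraries on the horizontal axis (log2 CPM) and the fitted log2 change of Met1 minus the primaries on the vertical axis. Red and blue points are the 2229 genes called higher and the 2191 called lower in Met1, spread over the whole range of expression, and grey points were not called.

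The gene with the largest rise among those of moderate level was Car9 (chromosome 4, 43506966 to 43513729, plus strand, GRCm38), a cell-surface carbonic anhydrase that is a textbook target of the hypoxia-inducible factors. Its level was 86.4, 245 and 102 CPM in Met1, against 0.43, 0.88 and 0.521 CPM in Primary2 and 0.809, 0.964 and 0.589 CPM in Primary3. All 3 Met1 libraries lay far above all 6 primaries (log2 change 7.69, SE 0.77, adjusted p 0.000142). Greb1, a gene first known as a target of the oestrogen receptor, was more even among replicates, at 147, 127 and 111 CPM in Met1 and 0.257 to 4.82 CPM in the primaries (log2 change 5.69, SE 0.56, adjusted p 0.000137). Reep1, which shapes the endoplasmic reticulum, stood at 67.7, 67.2 and 41 CPM against 0.321 to 3.22 CPM (log2 change 5.54, SE 0.53, adjusted p 0.00011).

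Other large rises were less even within Met1. Mgp, a secreted inhibitor of calcification, was at 296, 158 and 22.3 CPM in Met1 and 0.0948 to 3.48 CPM in the primaries (log2 change 6.53). Asprv1, an aspartic protease of skin, was at 4.26, 137 and 14.4 CPM against 0.337 to 2.58 CPM (log2 change 5.70). Igsf23, an immunoglobulin-superfamily protein, was at 13.5, 82.6 and 13.1 CPM against 0.53 to 1.95 CPM (log2 change 5.06). In these last 2 genes Met1 replicate 2 held the highest value. Genes of largest change were chosen for no overlap between Met1 and the primaries, so their separation follows from that choice. The remaining genes of this group were Thbs2, a matrix thrombospondin (5.74), H2-Q1, a class I histocompatibility gene (5.66), Mgat4c, an N-glycan glycosyltransferase (5.29), Ndnf, a secreted neurotrophic factor (4.90), the chemokine Cxcl15 (4.81) and the gastric junction protein Vsig1 (4.80), all log2 changes without overlap. Thbs2 lost its call with the ribosomal RNA covariate, and Cxcl15 lost it there and without Met1 replicate 2. H2-Q1 has close relatives in the same locus, and how reads were shared among them is not given, so its value is uncertain.

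The largest falls were in genes that Met1 had all but lost. Tfap2b (chromosome 1, 19208914 to 19238576, plus strand), which encodes the transcription factor AP-2 beta, had 0 counts in all 3 Met1 libraries and 9.56, 10.5, 17.5, 13.5, 12.2 and 11.5 CPM in the primaries. Measured against a floor of 3 counts over the 3 Met1 libraries, it was at least 253-fold lower in Met1. Tlx1, a homeobox transcription factor, had 1 count over Met1 against 2400 over the primaries, a ratio of 1340.5 with a 95% counting interval of 240.4 to 52968. Aqp1, a water channel, was at 0.1, 0.265 and 0.366 CPM in Met1, against 19.9, 14.9 and 106 CPM in Primary2 and 410, 224 and 336 CPM in Primary3 (log2 change -8.93, SE 0.92, adjusted p 0.000177). Primary3 values lay above Primary2 values, with no call between them, and Met1 lay below both.

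Cp, which encodes the copper-carrying ferroxidase ceruloplasmin, was at 0.651, 1.22 and 1.55 CPM in Met1 and 49.3 to 297 CPM in the primaries (log2 change -7.21). Ppic, a cyclophilin, was at 22.2, 1.27 and 1.78 CPM against 171 to 945 CPM (log2 change -5.76). Kctd15, whose protein inhibits AP-2 factors, was at 0.501, 0.053 and 0.183 CPM against 3.38 to 36.9 CPM (log2 change -6.08, not called with limma-voom). The other falls of this size were Nkd2, a brake on Wnt signalling (-7.09), the membrane glycoprotein gene Gpm6b (-6.92), Bmper, which binds bone morphogenetic proteins (-6.78), the lens crystallin gene Cryba4 (-6.52), the hair keratin gene Krt81 (-5.95) and the chemokine gene Cxcl5 (-5.91), each with no overlap, as the choice of genes required. Cryba4 was not called with limma-voom, and Gpm6b was not called without Met1 replicate 2.

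**Figure D2:**
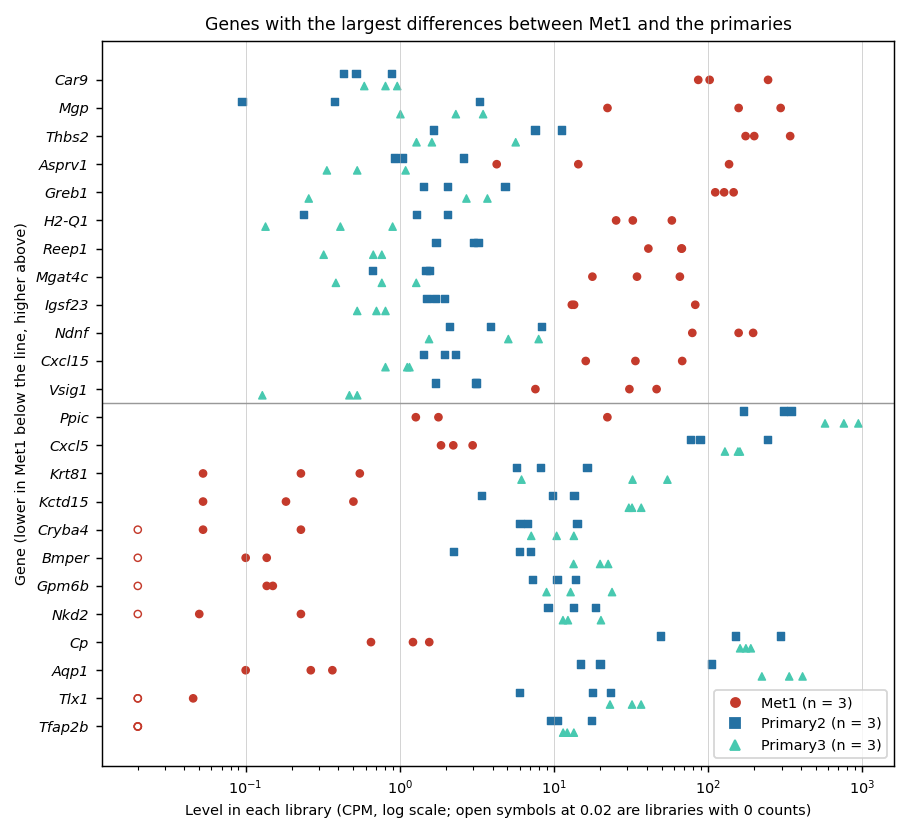
The level of the 12 genes with the largest rise (above the line) and the 12 with the largest fall (below it) in each library, in CPM on a log scale, with open symbols for libraries with 0 counts. These genes were chosen for no overlap between Met1 and the primaries. Met1 (circles) therefore lies wholly to the right of Primary2 (squares) and Primary3 (triangles) in the upper genes and wholly to the left in the lower ones. Asprv1 and Mgp show the spread within Met1.

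Genes with no count in any primary formed a short group. Mdfic, which encodes a regulator of MyoD-family factors, was at 6.51, 39.3 and 31.6 CPM in Met1, at least 933-fold higher than the floor of 3 counts over the 6 primaries. Pced1b was at 3.91, 24.3 and 0.183 CPM (at least 322-fold), and its call was lost without Met1 replicate 2. Snap25, a synaptic vesicle fusion protein (0.551, 3.55 and 0.0457 CPM, at least 47.1-fold), and Adcyap1, a neuropeptide precursor (3.16, 0.265 and 0.274 CPM, at least 44.2-fold), rested on 79 and 74 counts. Besides Tfap2b, the highest genes with no count in Met1 were not called by edgeR: Rnu3b1 and Exosc6 were at 0 in 3 and 4 of the primaries (DESeq2 called the former, the replicate block the latter), and Col6a1 did not pass the low-count filter.

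Among the most abundant genes by CPM, the simple epithelial keratin Krt8 rose from 759 to 1279 CPM in the primaries to 3135, 3993 and 2574 CPM in Met1 (log2 change 1.60, SE 0.35, adjusted p 0.00567). Anxa4, a calcium-dependent membrane-binding protein, was at 1828, 1897 and 1055 CPM against 422 to 643 CPM (log2 change 1.57, SE 0.17, adjusted p 0.000215). Car2, a cytosolic carbonic anhydrase of colonocytes, was at 1151, 1129 and 1528 CPM against 224 to 431 CPM (log2 change 1.94). No library of either side overlapped the other in these 3 genes, which the choice of genes required. The actin-binding gene Tmsb10 (1.11), the endoplasmic reticulum oxidase gene Ero1l (2.11) and Myh9, a non-muscle myosin (1.10), completed the group. The Ero1l, Tmsb10 and Car2 calls were lost without Met1 replicate 2. On the lower side stood Krt4, a keratin of stratified epithelia, at 105, 202 and 295 CPM in Met1 against 964 to 1491 CPM (log2 change -2.57, SE 0.58, adjusted p 0.00707), and Spp1, the secreted phosphoprotein osteopontin, at 421, 539 and 403 CPM against 824 to 2189 CPM (-1.67). Anxa3, another annexin (-1.08), Crip1, a small LIM protein (-1.86), the nuclear RNA Neat1 (-1.24) and the cornified-envelope gene Sprr2a2 (-1.71) were lower as well. Crip1 and Sprr2a2 lost their calls without any 1 of the Met1 libraries, and Neat1 without Met1 replicate 2. Sprr2a2 has near-identical neighbours, so its own count is uncertain.

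Hypoxia-inducible factors bind short sites near genes for glucose uptake, glycolysis and acid handling when oxygen is low. Of 23 measured members of the hypoxia and glycolysis list, 11 rose and 0 fell (median log2 change 0.66, beside 14.9% higher, 14.7% lower and a median of -0.03 over all genes). Without Met1 replicate 2, 8 rose, and with the ribosomal RNA covariate 18 rose. The promoters of 3 of the risers are printed because all hold the core letters of a hypoxia response element. Each is the 250 bases before the RefSeq start (GRCm38.p6), 5′ to 3′ on the gene's strand, with every ACGTG or GCGTG in capitals, read on either strand so that CACGT or CACGC also counts.
Car9 (chr4:43506776-43507025, plus strand): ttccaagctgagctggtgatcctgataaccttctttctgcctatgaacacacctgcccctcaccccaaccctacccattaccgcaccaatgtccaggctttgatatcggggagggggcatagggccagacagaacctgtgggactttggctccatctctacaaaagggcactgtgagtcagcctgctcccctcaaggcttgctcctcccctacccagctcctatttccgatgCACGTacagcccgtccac
Hk2 (chr6:82774455-82774704, minus strand): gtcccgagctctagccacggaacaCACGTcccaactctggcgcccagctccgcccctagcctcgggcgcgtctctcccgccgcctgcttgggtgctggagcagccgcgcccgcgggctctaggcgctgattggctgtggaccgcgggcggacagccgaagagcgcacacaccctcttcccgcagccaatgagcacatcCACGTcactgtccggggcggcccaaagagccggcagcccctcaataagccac
Slc2a1 (chr4:119108495-119108744, plus strand): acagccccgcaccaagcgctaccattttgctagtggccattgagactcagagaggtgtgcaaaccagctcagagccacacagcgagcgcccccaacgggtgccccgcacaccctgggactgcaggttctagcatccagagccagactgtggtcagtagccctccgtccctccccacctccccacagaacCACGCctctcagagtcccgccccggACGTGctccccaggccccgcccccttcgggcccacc
The single match in Car9 lay 13 bases before the start, and Hk2 and Slc2a1 held 2 matches each. A match was common: 38.6% of 32851 promoter windows and 41.5% of genes held one, and 20 of the 22 list genes with a promoter entry did. Such a match is a description of letters, not evidence of binding.

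By step of the pathway, Slc2a1, the glucose transporter GLUT1, was at 326, 443 and 405 CPM in Met1 and 111 to 224 CPM in the primaries (log2 change 1.20, SE 0.23, adjusted p 0.00352). Both hexokinase genes rose, Hk2 from 61.9 to 140 CPM in the primaries to 141, 297 and 193 CPM in Met1 (1.33, SE 0.21, adjusted p 0.0012) and Hk1 with a log2 change of 1.16. Met1 replicate 1 was close to the top of the primary range for Hk2. The phosphofructokinase genes Pfkp (1.10) and Pfkl (0.70) rose, as did Gpi1 (0.51), Tpi1 (0.61), Gapdh (0.66) and Pkm (0.58), which encode later enzymes of the same path. Gapdh and Pkm have many processed pseudogenes, so their counts may share reads with those copies. Egln3, a hydroxylase that marks hypoxia-inducible factors for decay, rose with a log2 change of 1.94. Ldha, which makes lactate, was at 3596 to 3885 CPM in Met1 and 2511 to 4014 CPM in the primaries and did not pass (0.22, adjusted p 0.246). Ndrg1, another hypoxia-responsive gene, also missed the threshold, with 351 to 818 CPM against 43.5 to 364 CPM (1.63, adjusted p 0.0582). Car9, Slc2a1, Hk1, Hk2, Pfkl, Pfkp, Gapdh and Pkm were called in all 18 alternatives, and Egln3, Tpi1 and Gpi1 were not called without Met1 replicate 2. Within the primaries Egln3 varied from 23.7 to 207 CPM.

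Cells under endoplasmic reticulum stress or amino acid shortage raise the factors Atf4, Ddit3 and Xbp1 and their targets. Of 18 measured members of that list 11 rose and 0 fell (median log2 change 0.77), and 4 rose without Met1 replicate 2. Over all genes the higher calls fell from 2229 to 1153 without that library. Ddit3, which encodes the stress factor CHOP, was at 70.1, 184 and 99.6 CPM in Met1 and 6.5 to 40.2 CPM in the primaries (log2 change 2.74, SE 0.63, adjusted p 0.0074). The glutathione-degrading enzyme gene Chac1 was at 31.3, 46.5 and 30.5 CPM against 7.62 to 19.7 CPM (1.59, SE 0.30, adjusted p 0.0029). All Met1 libraries were above all primaries for both. The pseudokinase gene Trib3 (1.63), Sesn2, a brake on growth signalling (1.85), the chaperone gene Hspa5 (0.99), Xbp1 (0.81), Slc7a5, an amino acid transporter gene (0.80), Atf4 (0.74) and Asns, which makes asparagine (0.71), rose too. Ddit3, Chac1, Sesn2 and Xbp1 were called in all 18 alternatives, and the others named here were not called without Met1 replicate 2.

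The MAPK pathway carries growth factor signals to the nucleus, and its feedback inhibitors serve as a readout of its output. Of 18 measured members 9 rose and 0 fell (median log2 change 0.51), and 4 rose without Met1 replicate 2. Egr1, an immediate early transcription factor, was at 48.9, 26.3 and 24.1 CPM in Met1 and 3.64 to 9.07 CPM in the primaries (log2 change 2.58, SE 0.44, adjusted p 0.00167). Among feedback inhibitors Dusp6, a phosphatase, was at 147, 167 and 115 CPM against 48.1 to 96.1 CPM (0.90, SE 0.14, adjusted p 0.00135), and Spred2 was at 46.7, 57.2 and 58.6 CPM against 21 to 34.8 CPM (0.91). The groups did not overlap in these 3 genes. Phlda1 (1.40), the ligand gene Areg (1.62) and the ETS factor gene Etv5 (1.39) rose, while Spry2 (-0.28), Etv4 (0.11) and Etv1 (-0.21) did not pass. Egr1, Dusp6, Spred2 and Phlda1 were called in all 18 alternatives, and Areg and Etv5 were not called without Met1 replicate 2.

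Epithelial cells make chemokines that draw neutrophils and other leukocytes. The cytokine and chemokine list moved mostly down: of 20 measured members 11 fell and 3 rose (median log2 change -2.14), and without Met1 replicate 2, 7 fell and 0 rose, and with the ribosomal RNA covariate 7 fell and 2 rose. Cxcl5, a neutrophil attractant, was at 1.85, 2.23 and 2.97 CPM in Met1, against 88.6, 76.8 and 244 CPM in Primary2 and 129, 161 and 156 CPM in Primary3 (log2 change -5.91, SE 0.79, adjusted p 0.000572). Cxcl1, of the same family, was at 4.66, 1.86 and 5.03 CPM against 24.7 to 82.3 CPM (-3.70, SE 0.51, adjusted p 0.000641). Ccl20, which attracts lymphocytes and dendritic cells, was at 0.401, 0.318 and 0.32 CPM against 2.64 to 31.3 CPM (-4.93). Every Met1 library was below every primary library in these 3 genes.

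The promoter of Cxcl1 is shown because it holds the letters of the site read by NF-kappaB factors, which drive many inflammatory genes. Capitals mark GGG, then any 3 bases, then TTCC, on either strand in the 250 bases before the RefSeq start (GRCm38.p6).
Cxcl1 (chr5:90890995-90891244, plus strand): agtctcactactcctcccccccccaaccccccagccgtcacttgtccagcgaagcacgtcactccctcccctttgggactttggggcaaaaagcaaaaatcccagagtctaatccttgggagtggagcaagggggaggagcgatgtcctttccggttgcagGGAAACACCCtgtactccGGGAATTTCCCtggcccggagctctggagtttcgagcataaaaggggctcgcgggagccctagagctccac
It held 3 matches, of which the pair nearest the start overlap each other on opposite strands. The motif was found in 4.65% of 32851 windows and 5.31% of genes, and in 8 of the 19 list genes with a promoter entry. Csf2, another member that fell, had 0 matches.

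The colony-stimulating factors Csf1 (0.501, 0.689 and 0.686 CPM against 2.26 to 13.4 CPM, log2 change -3.26) and Csf2 (-3.53), the inflammatory cytokine genes Tnf (-2.29) and Il1a (-2.69), and the chemokine genes Cxcl16 (-1.38), Cxcl2 (-2.00), Cxcl3 (-1.88) and Ccl9 (-2.86) completed the falls. Cxcl5, Cxcl1, Ccl20, Cxcl16, Csf1, Csf2 and Tnf were called in all 18 alternatives, and Il1a lost its call in 11. The 3 members that rose were Cxcl15, Ccl5 and Cxcl10. Ccl5 was at 2.15, 29 and 1.23 CPM in Met1 and 0.215 to 0.711 CPM in the primaries (4.63), and Cxcl10 at 3.86, 26.9 and 6.22 CPM against 0.913 to 2.57 CPM (2.94). Both are induced by interferon, and both were highest in Met1 replicate 2. The interferon-stimulated list had 5 of 26 members higher, a share near the 14.9% over all genes, and 1 lower (median 0.72). Without that library 3 members of the list were higher and 0 lower. Its members included Oasl1 at 12.3, 128 and 29.9 CPM against 2.49 to 13.7 CPM (2.73) and Ifih1, a sensor of double-stranded RNA (1.56). Ifih1 was called in all 18 alternatives, whereas Ccl5, Cxcl10 and Oasl1 were not called without Met1 replicate 2 or with limma-voom.

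Identity factors and epithelial genes leaned upward. The intestinal transcription factor list had 10 of 22 members higher and 0 lower (median log2 change 1.04), and 4 higher without Met1 replicate 2. Cdx2, which sets hindgut identity, was at 56.5, 50.8 and 38.9 CPM in Met1 and 13 to 30.1 CPM in the primaries (log2 change 1.21, SE 0.21, adjusted p 0.00183). The groups did not overlap for Cdx2, nor for Klf5, a crypt factor (0.79), Foxa1, a pioneer factor (0.62), or Tcf7l2, the DNA-binding partner of beta-catenin (0.75). Hnf4a, a master factor of absorptive cells, was at 21.4, 94 and 33 CPM against 14 to 31.4 CPM and did not pass (1.08, adjusted p 0.295). The epithelial list had 8 of 19 members higher and 0 lower (median 0.45), and 5 higher without Met1 replicate 2. Dsp, the desmosomal plaque protein, was at 387, 464 and 440 CPM against 149 to 256 CPM (1.29, SE 0.20, adjusted p 0.00103), and the tight junction gene Ocln (0.69) and the epithelial factor genes Grhl2 (0.58) and Esrp1 (0.57) rose with it. Epcam (-0.25, adjusted p 0.0644) and Cdh1, which encodes E-cadherin (0.05, adjusted p 0.867), did not pass. Cdx2, Klf5, Foxa1, Tcf7l2, Dsp, Ocln, Grhl2, Esrp1 and Krt8 were called in all 18 alternatives. The posterior Hox genes Hoxa13 (2.35) and Hoxb13 (1.04) rose, with 0 Hox genes lower. These were 2 of 18 measured Hox genes, a share below the 14.9% higher over all genes. Both lost their calls with the ribosomal RNA covariate.

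Stem and Wnt genes divided. In the Wnt target list 7 of 18 members rose and 0 fell (median log2 change 0.45), with 3 higher without Met1 replicate 2 and 1 with the ribosomal RNA covariate. Against Primary2 alone 1 rose, and against Primary3 alone 6 rose. Mmp7, a secreted protease of Paneth cells and intestinal tumours, was at 62.4, 192 and 128 CPM in Met1 and 1.75 to 30.7 CPM in the primaries (3.82, SE 0.81, adjusted p 0.00512). The feedback genes Axin2 (0.93) and Rnf43 (0.45), the secreted Wnt inhibitor gene Wif1 (24, 2.28 and 16.8 CPM against 0 to 0.521 CPM, 6.44) and the homeobox gene Prox1 (4.61) rose, while Ccnd1 (-0.06), Nkd1 (0.05) and Notum (-0.85) did not pass. In the stem cell list 5 of 16 rose and 2 fell (median 0.47), with 2 and 1 without Met1 replicate 2, as with the covariate. Against Primary2 alone 1 rose and 2 fell, and against Primary3 alone 5 rose and 1 fell. The receptor gene Ephb2 was at 146, 94.8 and 72.6 CPM against 9.72 to 25.5 CPM (2.82, SE 0.67, adjusted p 0.00855). Lgr5, the crypt base stem cell marker, was at 77.3, 44.8 and 25.5 CPM against 12.3 to 28.3 CPM (1.43), with Met1 replicate 3 inside the primary range and the call lost without replicate 1. The surface marker gene Prom1 (-0.80) and the Polycomb gene Bmi1 (-0.62) fell. Mmp7 and Ephb2 were called in all 18 alternatives. With the ribosomal RNA covariate, Axin2, Rnf43, Wif1, Prox1, Lgr5 and Prom1 were not called.

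The fetal and regenerative list, genes of injured or fetal-like gut, had 2 of 18 members higher and 5 lower (median log2 change -0.25), with the same counts without Met1 replicate 2. Tnfrsf12a, the receptor of the cytokine TWEAK, was at 203, 270 and 280 CPM in Met1 and 415 to 732 CPM in the primaries (-1.07, SE 0.16, adjusted p 0.000897). Anxa1 was at 1575, 1264 and 1535 CPM against 1943 to 3053 CPM (-0.80), S100a6 at 2465 to 2940 CPM against 3968 to 5684 CPM (-0.87), and Spp1 and Anxa3 fell as given above. Ly6d (2.37) and the gap junction gene Gja1 (3.21) were the members that rose. Of 18 YAP targets 4 fell and 2 rose (median -0.30), beside 14.7% lower and 14.9% higher over all genes. Without Met1 replicate 2, 2 YAP targets fell and 0 rose. Ankrd1, a classical YAP target, was at 1.25, 5.46 and 17.1 CPM against 62.2 to 201 CPM (-3.79, SE 0.77, adjusted p 0.00412), and Gadd45a, a stress gene, at 54.5, 264 and 84 CPM against 10.5 to 49.9 CPM (2.25). Gadd45a was not called without Met1 replicate 2, while Ankrd1 and the 5 fetal-list genes that fell were called in all 18 alternatives.

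Signals of the TGF-beta superfamily and Notch gave few calls, with shares near or below the 14.9% higher and 14.7% lower over all genes. The BMP target list nevertheless lay upward, with a median log2 change of 1.499, beside -0.03 over all genes. The medians of the TGF-beta and Notch lists were -0.045 and -0.362. Bambi, a decoy receptor that dampens TGF-beta superfamily signals, was at 57.3, 40.1 and 44.9 CPM in Met1, 8.22, 10.7 and 6.02 CPM in Primary2 and 3.17, 4.31 and 4.48 CPM in Primary3 (3.04, SE 0.26, adjusted p 5.19e-05). Met1 lay above all primaries, and its largest adjusted p over the alternatives was 0.00202. Bambi and Id3 were the 2 of 11 BMP targets that rose, with 0 lower and the same counts without Met1 replicate 2, and Id3 lost its call in 10 alternatives. With only the groups compared 5 BMP targets rose, and with the ribosomal RNA covariate 1 rose. The median of the BMP target list was 1.549 against Primary2 alone and 1.25 against Primary3 alone. In the TGF-beta list 2 of 16 rose and 2 fell, 1 each way without Met1 replicate 2: the ligand gene Tgfb3 was at 5.96, 5.09 and 9.79 CPM against 17.9 to 50.2 CPM (-2.09), and the signal transducer gene Smad3 rose (0.82), both in all 18 alternatives. In the Notch list 1 of 13 rose, the target gene Hes1 (0.61), and 1 fell, the feedback gene Nrarp (-0.88). These counts were 0 and 1 without Met1 replicate 2.

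Markers of specialised cells were mixed and mostly low. In the goblet cell list 4 of 7 measured members rose and 2 fell, but 1 each way without Met1 replicate 2: Agr2, which folds mucins, was at 166, 282 and 33.5 CPM in Met1 against 5.6 to 15.1 CPM (3.93, SE 0.59, adjusted p 0.000925), while Spink4 (-3.48) and Clca1 (-4.25) fell and the main mucin gene Muc2 did not pass the low-count filter. The gastric and foregut list had 3 of 11 higher, Vsig1, Cldn18 (2.97) and Gkn3 (4.63), and 2 lower, Tff1 at 1.8, 3.66 and 4.89 CPM against 13.9 to 129 CPM (-3.83) and Tff2 (-3.92). Those counts were 2 higher and 0 lower without Met1 replicate 2. In the squamous list 5 of 11 fell and 2 rose: Krt16 (-3.35), Krt6a (-2.67), Krt14 (98.5, 39 and 132 CPM against 353 to 588 CPM, -2.38), Lor and Sprr2a3 were lower and Krt13 (1.73) and Ivl (2.62) higher. Without Met1 replicate 2 only 1 squamous member fell and 0 rose. The median log2 change of this list differed in sign between the sets of primaries. Against Primary2 alone 3 fell and 2 rose (median 0.64), and against Primary3 alone 5 fell and 1 rose (median -1.45). Of 4 Paneth and deep crypt markers measured, Mmp7, Reg4 (3.50) and Itln1 (2.89) rose and Reg3b (-4.32) fell, with 2 and 1 without Met1 replicate 2. Among 4 tuft cell markers Ptgs1, a cyclooxygenase gene, was at 20.6, 19.8 and 47.1 CPM against 234 to 439 CPM (-3.42, SE 0.40, adjusted p 0.00031), Dclk1 fell (-4.53) and Sh2d6 rose (3.03), with 1 lower and 1 higher without Met1 replicate 2. The absorptive cell list had 4 of 10 higher, Car2, Vil1 (1.36), Car1 (3.23) and Fabp2 (1.21), and 0 lower. There were 2 higher without Met1 replicate 2 and 1 with the ribosomal RNA covariate. Of the genes in this paragraph, Agr2, Spink4, Vsig1, Cldn18, Krt16, Mmp7, Reg3b, Ptgs1, Sh2d6 and Vil1 were called in all 18 alternatives, while Itln1 lost its call in 10, Krt14 in 10, Dclk1 and Fabp2 in 11 and Tff2 in 12. None of the 15 enteroendocrine genes passed the low-count filter.

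**Figure D3:**
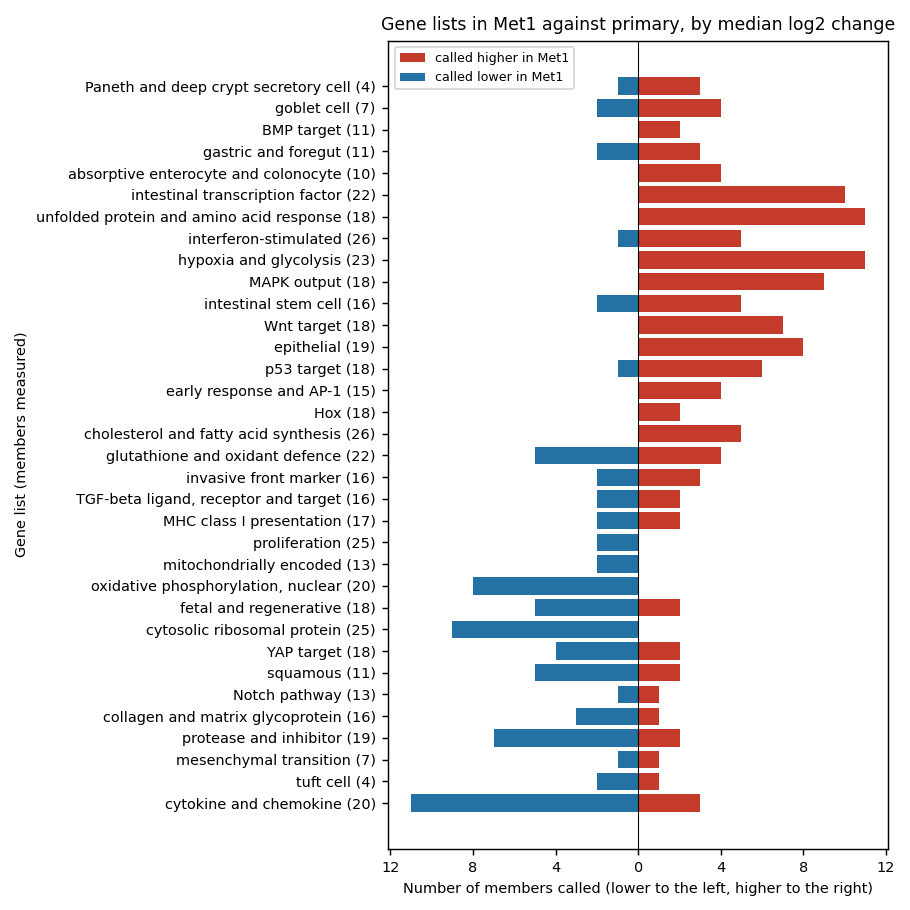
Bars give, for each gene list, the number of measured members called higher (right) and lower (left) in Met1 against the primaries, ordered by the list's median log2 change, with the number of members measured in parentheses. The lists with 11 members higher and 0 lower are hypoxia and glycolysis and the unfolded protein and amino acid response, and the cytokine and chemokine list reaches farthest to the left with 11 lower.

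Proteases and their inhibitors leaned downward. In the protease and inhibitor list 7 of 19 fell and 2 rose (median log2 change -0.74), with 4 and 2 without Met1 replicate 2. Timp1, an inhibitor of matrix metalloproteinases, was at 4.21, 1.96 and 3.57 CPM in Met1 and 16.7 to 43.1 CPM in the primaries (-3.00, SE 0.35, adjusted p 0.00031). Its relatives Timp2 (130, 87.6 and 160 CPM against 209 to 286 CPM, -0.97) and Timp3 (4.71, 16.3 and 107 CPM against 134 to 445 CPM, -2.91) fell too, as did the membrane protease gene Mmp14 (-2.11), the cystatin gene Cst3 (-0.88) and Plau, which encodes urokinase (-2.16). Mmp7 and the inhibitor gene Slpi (3.63) rose. In the matrix list 3 of 16 fell, a share near the 14.7% over all genes: the laminin gene Lamb1 (-3.52) and the collagen genes Col7a1 (-2.82) and Col4a2 (-1.11), while Lamc1 rose (0.45). Without Met1 replicate 2, 2 matrix genes fell and 0 rose, and the count of falls ran from 0 to 3 without 1 library. In the invasive front list 3 of 16 rose and 2 fell, shares near the 14.9% and 14.7% over all genes, with 2 each way without Met1 replicate 2. Among those that rose, the integrin gene Itga6 was at 480, 492 and 392 CPM against 222 to 260 CPM (0.90). The mesenchymal transition list had Twist1 higher (2.74), S100a4 lower (-2.71) and 7 members measured, with 0 higher and 1 lower without Met1 replicate 2. Timp1, Timp2, Cst3, Plau, Slpi, Itga6 and S100a4 were called in all 18 alternatives, Lamc1 lost its call in 10, Col4a2 in 8 and Twist1 in 7, and Timp3 and Mmp14 were not called without Met1 replicate 2.

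Housekeeping and stress lists moved by small amounts. Nuclear genes of oxidative phosphorylation had 8 of 20 lower and 0 higher (median log2 change -0.23), and ribosomal protein genes 9 of 25 lower and 0 higher (-0.25). Without Met1 replicate 2, 2 and 3 were lower, and with the ribosomal RNA covariate 2 and 4. Ndufa1, a subunit of complex I, was at 32.9, 31.3 and 36.1 CPM in Met1 and 54.5 to 81 CPM in the primaries (adjusted p 0.000623). Rpl13 was at 1337, 1196 and 1442 CPM against 1974 to 2442 CPM (-0.72), with no overlap in either gene. Ribosomal protein genes have many pseudogene copies, so their counts may be shared. Ndufa1, Cox4i1, Rpl13, Rpl23 and Rps4x were called in all 18 alternatives. Of 13 mitochondrially encoded genes 2 were lower, a share near the 14.7% lower over all genes, and 0 were lower without Met1 replicate 2. In the proliferation list 2 of 25 were lower, Rrm2 (-0.65) and Birc5 (-0.67), and 0 higher. That share of lower genes was below the 14.7% over all genes, and neither gene was called without Met1 replicate 2. In the cholesterol and fatty acid list 5 of 26 rose and 0 fell, a share near the 14.9% higher over all genes, and 3 rose without Met1 replicate 2. Its members included Srebf2, the master factor of sterol synthesis, at 343, 433 and 333 CPM against 159 to 238 CPM (0.89).

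In the glutathione and oxidant defence list 4 of 22 rose, a share near the 14.9% over all genes, and 5 fell. Without Met1 replicate 2, 0 rose and 1 fell. Nqo1, a quinone reductase, was at 6.51, 5.88 and 4.21 CPM against 14.3 to 23.4 CPM (-1.90), and Hmox1, a haem oxygenase, rose (1.20). Of 18 p53 targets 6 rose and 1 fell (median log2 change 0.40), beside 14.9% higher and 14.7% lower over all genes. Without Met1 replicate 2, 2 p53 targets rose. The p53 inhibitor gene Mdm2 was at 58.7, 59.1 and 51.1 CPM against 35.3 to 39.9 CPM (0.57, SE 0.13, adjusted p 0.00819) and the nuclease gene Aen fell (-0.95). Of 17 genes of class I antigen presentation 2 rose and 2 fell, shares near the 14.9% and 14.7% over all genes (1 each way without Met1 replicate 2). Among them B2m, the light chain of every class I complex, was at 53.4, 42.5 and 55.6 CPM against 85.8 to 173 CPM (-1.24, SE 0.22, adjusted p 0.0022). Hmox1 was not called without Met1 replicate 2. The early response list had 4 of 15 higher and 0 lower, beside 14.9% higher and 14.7% lower over all genes, but 1 higher without Met1 replicate 2.

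Markers of other cells that a culture from liver or colon could hold were low. Summed over the list, fibroblast and muscle genes gave 0.371 to 1.33 CPM in Met1 and 0.321 to 1.24 CPM in the primaries, and none of 12 passed the low-count filter. Erythroid genes were at 0 in Met1. Endothelial genes summed to 3.52 to 51.5 CPM in Met1 and 1.48 to 2.5 CPM in the primaries, and that sum was mostly Vwf, at 16.1, 46.1 and 2.1 CPM against 0.412 to 0.973 CPM (log2 change 5.11, adjusted p 0.000528). Of 9 endothelial genes, 7 did not pass the filter, Pecam1 and Cdh5 among them. Hepatocyte genes summed to 1.48 to 6.96 CPM against 1.71 to 33.2 CPM, and Alb, which encodes albumin, was the member that rose, at 5.66, 1.01 and 2.38 CPM against 0 to 0.752 CPM (4.76). Leukocyte genes summed to 22.6 to 29.7 CPM against 8.27 to 41.4 CPM, with Cd68 higher (1.66) and Csf1r lower (-3.97). The part of these cells in any result was not tested, and fewer cells of a type cannot be told apart from less RNA per cell in bulk libraries.

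Chromosomes differed in the direction of their genes. Over all tested genes 14.9% were higher and 14.7% lower. Chromosomes 6, 10, 15, 9 and 1 leaned up, with 29.3%, 32.6%, 27.6%, 26.8% and 25.6% of tested genes higher and 5.54%, 6.32%, 4.91%, 5.63% and 6.58% lower, and median log2 changes of 0.30, 0.27, 0.29, 0.24 and 0.19. Chromosomes 18 and 8 leaned down, with 36.5% and 32.6% lower, 4.88% and 5.58% higher, and medians of -0.39 and -0.30. Chromosomes 8 and 18 held 7.89% of tested genes and 18.2% of the lower calls. Chromosomes 6, 9, 10 and 15 held 19.2% of tested genes and 37.3% of the higher calls.

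The medians were also read per library, over genes with a mean log2 CPM of at least 3 and relative to the mean of the primaries. Chromosome 18 was at -0.37, -0.34 and -0.37 in the Met1 libraries and chromosome 8 at -0.30, -0.35 and -0.29. Chromosome 15 was at 0.12, 0.63 and 0.15, and chromosome 6 at 0.37, 0.40 and 0.15. Chromosome 1 ran from 0.22 to 0.26. Chromosomes 1, 8 and 18 were thus even over Met1, while chromosome 15 was highest in replicate 2 and its median ran from 0.11 to 0.38 over the alternatives. Single primaries also stood out, Primary2 replicate 1 at 0.34 on chromosome 5 and Primary2 replicate 2 at 0.28 on chromosome 15. Apc, Gata6, Egr1, Bambi and Ppic lie on chromosome 18, Krt8 and Krt4 on chromosome 15. Of the largest rises, Mgp, Reep1, Asprv1 and Ndnf lie on chromosome 6 and Mgat4c on chromosome 10. Dusp6, Phlda1 and Wif1, which rose, also lie on chromosome 10, and Mmp7 on chromosome 9. Of the largest falls, Aqp1 lies on chromosome 6 and Bmper on chromosome 9. DNA copy number was not measured in these libraries, and its part in any gene's change was not tested.

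**Figure D4:**
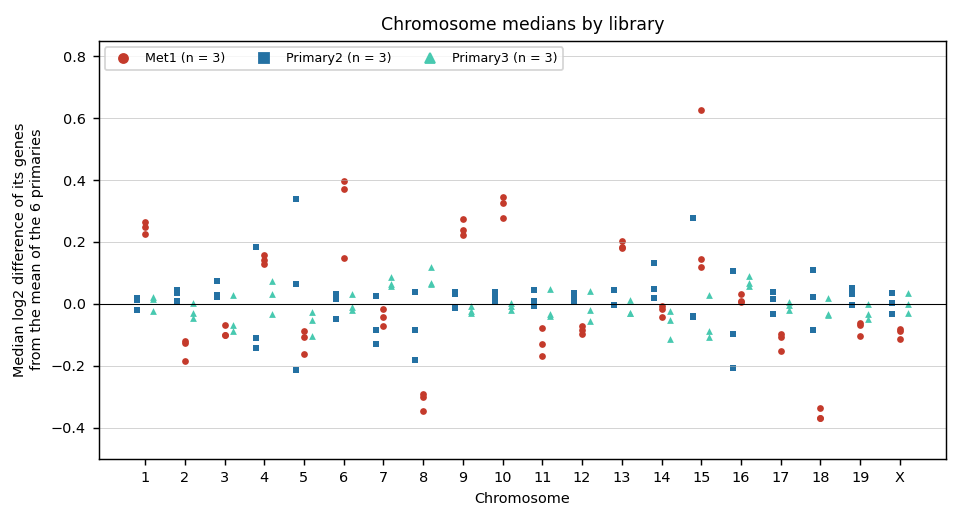
For each chromosome, the median over its genes (mean log2 CPM of at least 3) of the log2 difference from the mean of the 6 primaries, 1 point per library. Met1 points (circles) lie below all primaries on chromosomes 8 and 18 and, by less, on 2, 11, 12, 17, 19 and X. They lie above all primaries on chromosomes 1, 6, 9, 10 and 13. On chromosome 15 Met1 replicate 2 stands alone at 0.63.

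Transcript classes differed as well. Of 24 small nuclear RNA genes tested 14 were lower and 0 higher (median log2 change -2.00), and of 47 small nucleolar RNA genes 25 were lower and 0 higher (median -1.36). Protein-coding genes gave 2092 higher and 1852 lower of 12676, with a median near 0. The small RNAs carry no poly(A) tail as a rule, the libraries were selected for poly(A), and the ribosomal RNA share was 2.01% to 3.73% in Met1 against 3.53% to 7.03% in the primaries. The part of that carry-over in the small RNA result was not tested.

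Whether Met1 differed from metastases of later rounds (Met2 and Met3, 6 libraries) was tested directly, with 3994 genes called (26.8%), counting both directions. Met1 enters this comparison and the one with the primaries, so they are not independent. Car9 was at 5.97, 8.7 and 2.35 CPM in Met2 and 9, 1.38 and 0.262 CPM in Met3, a log2 difference from Met1 of -5.00 (SE 0.67, adjusted p 0.000775). Cxcl1 was at 12.4 to 51.5 CPM in the later metastases and higher than in Met1 (adjusted p 0.00178). Tlx1 had 0 counts in all 6 later metastases, Aqp1 was at 0 to 0.441 CPM there, and neither passed the test against Met1 (adjusted p 0.354 and 0.882). Against the same primaries, the later metastases gave log2 changes of 2.68 for Car9, -0.70 for Cxcl1 and -9.20 for Aqp1, beside 7.69, -3.70 and -8.93 for Met1, and both comparisons share their controls. Gata6 was at 0 to 1.21 CPM in the later metastases, below Met1 (-7.05, SE 0.89, adjusted p 0.000623) and below the primaries (-5.45), whereas Met1 held at least 5.96 CPM in each library.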

How the data were processed

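Libraries of organoid RNA were grouped by sample title. The kit selects poly(A) RNA and keeps strand, per the labels' protocols. Salmon 1.3.0 and mm10 are named in the submitters' processing notes, and the authors deposited estimated counts per gene. All values were whole numbers (0 were not), so they were used as deposited. How transcripts were summed to genes, with which annotation release and strand setting, was not given in the sources used here. Each column was matched through the library name in the sample description. Of 54418 gene IDs, 54166 matched GENCODE M21 (GRCm38, equal to mm10) and 252 did not. No sequencing batch or date is given in the sources used here.

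Genes were filtered with filterByExpr by group, which left 14925 genes with 99.9% of the counts. They were tested with edgeR 4.0.16 in R 4.3.3 (TMM factors, group means of all 5 groups of the series in 1 fit over 15 libraries, quasi-likelihood F test, Benjamini-Hochberg within each of 6 comparisons). The main contrast was Met1 minus the mean of Primary2 and Primary3. Changes are fitted log2 values with the SE from the F statistic, and CPM use TMM-scaled library sizes without length correction, so levels are not compared between genes. Where 1 side had 0 counts, bounds use a floor of 3 counts over that side, and intervals cover counting error only. Counts were simulated for this contrast from the real libraries (14626 genes), with 50 genes changed at each fold size. Of these, 8% changed 1.5-fold, 40% changed 2-fold, 74% changed 4-fold and 92% changed 8-fold were recovered, with 4 false calls among 14431. Far fewer genes were changed than were called in the data, so these shares may not hold for the data.

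Named genes were Apc, Trp53 and Gata6; the 12 largest called changes each way with a mean log2 CPM of at least 1 and no overlap; the 6 most abundant called genes each way changed at least 2-fold with no overlap; the 4 highest genes with 0 counts on either side; and up to 4 called members of smallest p from each of 40 gene lists. Further list members are named to describe a list, and were chosen after their values were seen. Predicted genes were passed over. Comparisons, lists and alternatives were chosen with earlier results of these data known. Promoter sequences are from RefSeq (GRCm38.p6). Alternatives used DESeq2 1.42.0, limma 3.58.1 (voom), relative log expression scaling, other filters, only the groups compared, the replicate number as a block, the ribosomal RNA share as a covariate, the 6 primaries as 1 group, and each library left out.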

Additional observations from a re-analysis of the deposited data

Results flagged for a closer look

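Apc, Trp53, Gata6 and the genes named in the report for the size or abundance of their change, or for having no count on 1 side, were also tested for a difference between the later metastases (Met2 and Met3) and Met1, with edgeR's quasi-likelihood test over all genes, and those past an adjusted p of 0.05 are listed with the log2 difference of later metastases minus Met1. Genes named only as members of a gene list are not repeated here. The test shares Met1 with the comparison against the primaries.

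Among genes that were higher in Met1 than in the primaries, the later metastases were lower for Car9 (-5.00), Igsf23 (-5.82), H2-Q1 (-4.87), Asprv1 (-4.78), Mgp (-4.13), Thbs2 (-3.71), Ndnf (-2.18), Reep1 (-1.70) and Greb1 (-1.49). Mgp and Asprv1 also vary widely among the Met1 libraries. The later metastases were uneven too. Thbs2 was at 784, 0.645 and 57.2 CPM in Met2, so Met2 replicate 1 lay above every Met1 library. Met2 libraries also lay inside the Met1 range for Mgp, Ndnf and Reep1 (up to 87.5, 93.3 and 44.3 CPM). The same held for Mdfic (-5.76) and Pced1b (-5.79), which had no count in the primaries, and for the abundant genes Car2 (-3.50), Ero1l (-1.91), Myh9 (-1.25) and Anxa4 (-0.52). Car2 was at 22 to 245 CPM in the later metastases, below the 224 to 431 CPM of the primaries except for 1 library, so the later metastases lay on the other side of the primaries from Met1.

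Among genes that were lower in Met1, the later metastases were higher for Cryba4 (6.71), Kctd15 (6.07), Bmper (5.62), Gpm6b (4.65), Krt81 (3.16), Cxcl5 (2.14), Sprr2a2 (1.69) and Anxa3 (0.59). Kctd15 was at 0.335 to 41.1 CPM there, a range that spans the primaries. Ppic (-4.80) and Spp1 (-1.81) went the other way and were lower still than in Met1.

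Apc (-0.77) and Gata6 (-7.05) did not pass the test between Met1 and the primaries but were lower in the later metastases than in Met1. Apc was at 34.7 to 49 CPM there, below every Met1 and primary library.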

How the results depend on the processing

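The count of genes called in Met1 against the primaries ran from 3505 (ribosomal RNA covariate) to 5237 (DESeq2) over the other tools, scalings, filters and models, and from 2115 (without Met1 replicate 2) to 4162 without 1 library. Against Primary2 alone it was 800 to 2454 without 1 library, lowest without Primary2 replicate 1 and 801 without Met1 replicate 2. Against Primary3 alone it was 1621 with the covariate and 1672 to 2946 without 1 library. Between the primaries edgeR called 0 to 2 without 1 library, DESeq2 44 and limma-voom 1. Later metastases against Met1 gave 2588 with only the groups compared, 2145 with the covariate and 1847 to 4823 without 1 library. The cause of these shifts was not tested, though fewer libraries leave fewer residual degrees of freedom. Apc changed sign around 0: -0.0137 with the covariate, -0.0039 with the primaries as 1 group, and -0.0735 to 0.0669 without 1 library. Of 229 called genes that were named or on a list, 101 were called under all 18 alternatives, 110 were not called without Met1 replicate 2 and 69 were not called with the covariate.

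Same-numbered libraries of Met1, Primary2 and Primary3 deviated together with correlations of -0.04 to 0.27, not over 0.1 in every pair, so the numbers were not taken to pair the samples. With the replicate block 4392 genes were called. In the simulation, which changed far fewer genes than were called in the data, 8% of 1.5-fold changes were recovered.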

Other observations

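Chromosome medians of Met2 and Met3 were computed as for Met1, relative to the mean of the 6 primaries. On chromosome 5 the 6 later metastases ran from -0.14 to 0.67, and on chromosome 6 from -0.08 to 0.39, beside 0.15 to 0.40 in Met1. On chromosome 1 they ran from 0.10 to 0.28, beside 0.22 to 0.26 in Met1. The low medians of chromosomes 18 and 8 were present in all 6 later metastases as well. Chromosome 18 ran from -0.50 to -0.36 there, beside -0.37 to -0.34 in Met1. Chromosome 8 ran from -0.36 to -0.23, beside -0.35 to -0.29 in Met1.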
